A study of Mus musculus with 36 samples.

Results

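The effect of imipramine (IMN), a tricyclic antidepressant, was read in the anterior cingulate cortex (aCC) over both genotypes of the study at once. The rule took every library of the series, 36 of 36, and set 19 IMN libraries against 17 vehicle libraries with genotype as an additive term. The vehicle libraries came from 8 wild type (WT) and 9 Brd1+/- mice, and the IMN libraries from 10 WT and 9 Brd1+/- mice. All mice were female, of the strain labelled C57BL/6NTac-Brd1, and 8 to 11 weeks old. Brd1+/- mice carried 1 targeted allele of Brd1, in which loxP sites had flanked the deleted exons. Vehicle was saline, and the IMN dose was 10 mg/kg. According to the methods of the study every mouse was injected under the skin on consecutive days, hung by the tail on the first, passed an open field and a forced swim on the second, and was killed an hour after the swim, so that vehicle mice had also been handled, injected and made to swim. Each library came from a punch of the right aCC of 1 mouse, and the values are TPM, transcript levels relative to the total of the library. Since each library was 1 punch of a separate mouse, the p-values below measure the spread between libraries. Animal, punch placement and library preparation cannot be told apart in that spread.

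IMN blocks the uptake of serotonin and noradrenaline from the synapse and also binds muscarinic, histamine and adrenergic receptors. Neurons respond to synaptic input and calcium entry with the transcription of immediate-early genes, first of transcription factors such as Fos, Egr1 and Npas4 and then of effectors such as Arc, Bdnf and Nptx2 that act at synapses. A forced swim is a stressor that raises both neuronal activity and circulating glucocorticoids, and glucocorticoid receptors drive genes such as Fkbp5, Sgk1 and Ddit4 in the brain. Amphiphilic amines such as IMN can also interfere with cholesterol handling in cells, which neurons and glia meet by synthesis through the mevalonate pathway.

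Stretches before the start of 5 genes that the results turn on are shown, since these genes moved with IMN and their windows were searched for binding motifs. They are from RefSeq on GRCm38.p6, 5′ to 3′ on the strand of the gene, and capitals mark TGACG, the core of the cyclic AMP response element, on either strand. The Mvd, Rgs2, Sult1a1 and Ddit4 stretches end where the gene begins in GENCODE, and the Npas4 stretch is 30 bases round a pair of these cores. The Npas4 stretch lies before the RefSeq start that anchors its window but inside the span of the gene in GENCODE. In GENCODE on GRCm38, Npas4 spans chr19:4984355-4990316, Mvd chr8:122433601-122443422, Sult1a1 chr7:126672865-126676432 and Ddit4 chr10:59949669-59951834, all protein coding.
Npas4, chr19:4990128-4990157, minus strand: cgttcgaCGTCAcgggaTGACGtcggaagt
Rgs2, chr1:144004162-144004399, minus strand: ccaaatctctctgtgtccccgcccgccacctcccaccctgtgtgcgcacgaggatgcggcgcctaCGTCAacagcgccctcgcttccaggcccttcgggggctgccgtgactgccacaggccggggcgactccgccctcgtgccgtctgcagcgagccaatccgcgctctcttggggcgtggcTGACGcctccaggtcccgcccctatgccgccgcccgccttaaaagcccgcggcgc
Mvd, chr8:122443423-122443672, minus strand: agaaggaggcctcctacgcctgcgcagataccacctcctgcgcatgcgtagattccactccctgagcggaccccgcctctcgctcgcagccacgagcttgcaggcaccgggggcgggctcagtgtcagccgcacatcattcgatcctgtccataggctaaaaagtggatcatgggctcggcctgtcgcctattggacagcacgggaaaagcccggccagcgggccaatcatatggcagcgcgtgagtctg
Sult1a1, chr7:126676433-126676668, minus strand: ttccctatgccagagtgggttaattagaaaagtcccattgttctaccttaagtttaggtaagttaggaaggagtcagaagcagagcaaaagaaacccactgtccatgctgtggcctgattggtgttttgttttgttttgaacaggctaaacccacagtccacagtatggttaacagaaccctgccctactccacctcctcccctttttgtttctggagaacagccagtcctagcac
Ddit4, chr10:59951835-59952020, minus strand: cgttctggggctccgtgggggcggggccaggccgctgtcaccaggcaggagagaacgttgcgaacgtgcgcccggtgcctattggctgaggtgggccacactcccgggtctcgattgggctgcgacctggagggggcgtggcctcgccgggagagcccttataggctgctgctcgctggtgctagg

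Before the results, 2 libraries stood apart. WT vehicle 1 had the lowest or near-lowest levels of several activity genes among vehicle libraries, such as Bdnf at 8.74 TPM against a vehicle median of 27.2, and was low in the upper-layer marker Otof at 0.248 TPM. Of the 17 vehicle libraries it had the lowest mean log2 level of both activity lists and of the upper-layer markers, and the highest of the myelin markers (6.42 against a vehicle median of 4.71) and of the deep-layer markers (5.07 against 3.82). Brd1+/- vehicle 6 held choroid plexus RNA, with Ttr at 3806 TPM against a vehicle median of 0.709, and raised striatal RNA, with Rasd2 at 109 TPM against a vehicle median of 38.9. Both are vehicle libraries, and each main count is therefore also given for the 34 other libraries. Some traits of WT vehicle 1 also occurred in IMN libraries, which those 34 keep. For activity-dependent transcription factors and upper-layer markers it had mean log2 levels of 4.07 and 3.86, and Brd1+/- IMN 6 had 3.90 and 4.00. Brd1+/- IMN 6 also had 6.80 for myelin but 3.81 for deep-layer markers. WT IMN 7 had 6.87 for myelin and 5.12 for deep-layer markers but 4.50 for those factors. Over all 52636 genes listed, any 2 of the 36 libraries correlated at a Pearson's r of 0.977 to 0.989 on the log2(TPM + 0.5) scale. No pair was identical (0 of 630). These genes include 17158 at 0 in all libraries, which raise r, and r over the genes tested alone was not computed. The share of TPM from mitochondrially encoded genes was 24.8% ± 1.49 (SD, n = 17) in vehicle and 25.8% ± 1.77 (SD, n = 19) in IMN libraries, a difference of 0.975 percentage points (permutation test within genotype, two-sided, p = 0.0847).

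IMN moved a small set of genes, most of them downward. Of 25572 genes tested, 70 (0.274%) passed a limma adjusted p of 0.05 over both genotypes, of which 23 (0.0899%) were higher and 47 (0.184%) lower with IMN. At an unadjusted p under 0.01, 796 genes (3.11%) were counted, 299 higher (1.17%) and 497 lower (1.94%), where 256 would be counted at that level if no gene differed. The absolute log2 fold change of the 70 genes ran from 0.16 to 1.32 with a median of 0.38. Protein-coding genes made up 65 of them, and 62 had a median of at least 1 TPM. For none of the 70 genes were the vehicle and IMN libraries free of overlap (0 genes), but for 30 genes all 19 IMN libraries lay on the same side of the vehicle median of their own genotype, and for 67 genes at least 17 did. Over all genes tested 0 were free of overlap, 74 (0.289%) had all 19 IMN libraries on the side given by the fold change, and 788 (3.08%) at least 17. The 70 genes were chosen on these same values, so that their counts describe the overlap and lend the calls no support.

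**Figure D1:**
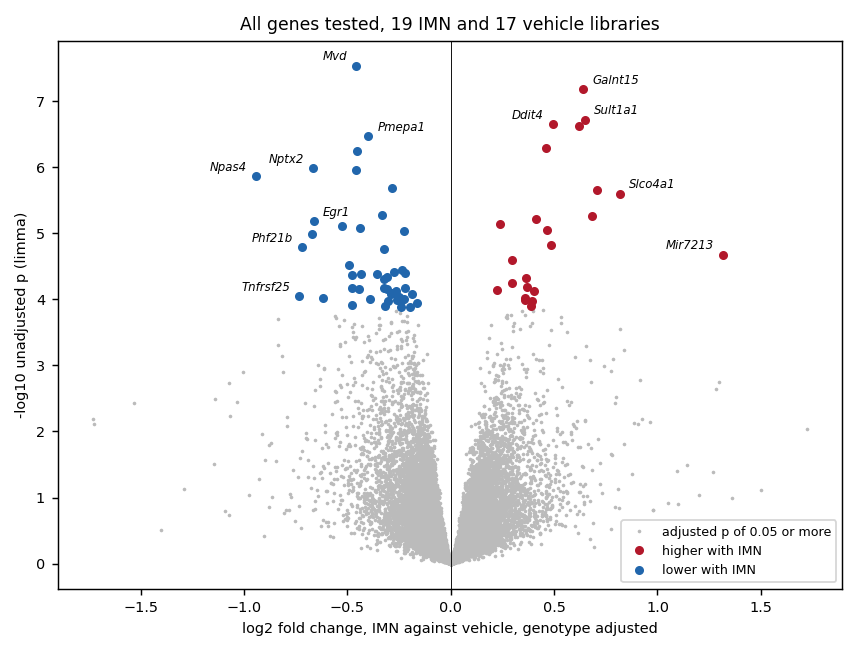
Log2 fold change with IMN, adjusted for genotype (horizontal axis), against -log10 of the unadjusted limma p (vertical axis) for the 25572 genes tested, with 23 genes called higher in red and 47 called lower in blue. Mvd has the smallest p, Npas4 the most negative and Mir7213 the most positive fold change among the called genes.

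The counts rested on single vehicle and IMN libraries. Without both libraries that stood apart, 164 of 25409 genes passed (0.645%), 47 higher (0.185%) and 117 lower (0.46%), all with the sign they had over 36 libraries, and 69 of the 70 genes were among them. The gene lost was Ppcs, named after its value was seen. Leaving out 1 library at a time gave between 35 and 170 genes. The count rose to 170 without WT vehicle 1 and to 112 without Brd1+/- IMN 7. It fell to 36, 35, 43 and 41 without WT vehicle 2, 3, 5 and 6, to 37, 37 and 38 without Brd1+/- vehicle 3, 4 and 9, to 39, 42 and 45 without WT IMN 2, 3 and 5, and to 37, 40 and 45 without Brd1+/- IMN 2, 6 and 8. On TPM recomputed without mitochondrially encoded genes, 32 genes were called higher and 31 lower, so that the excess of lower genes was not there on that scale, and the median log2 fold change of all genes was 0.0127 rather than -0.00231.

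**Figure D2:**
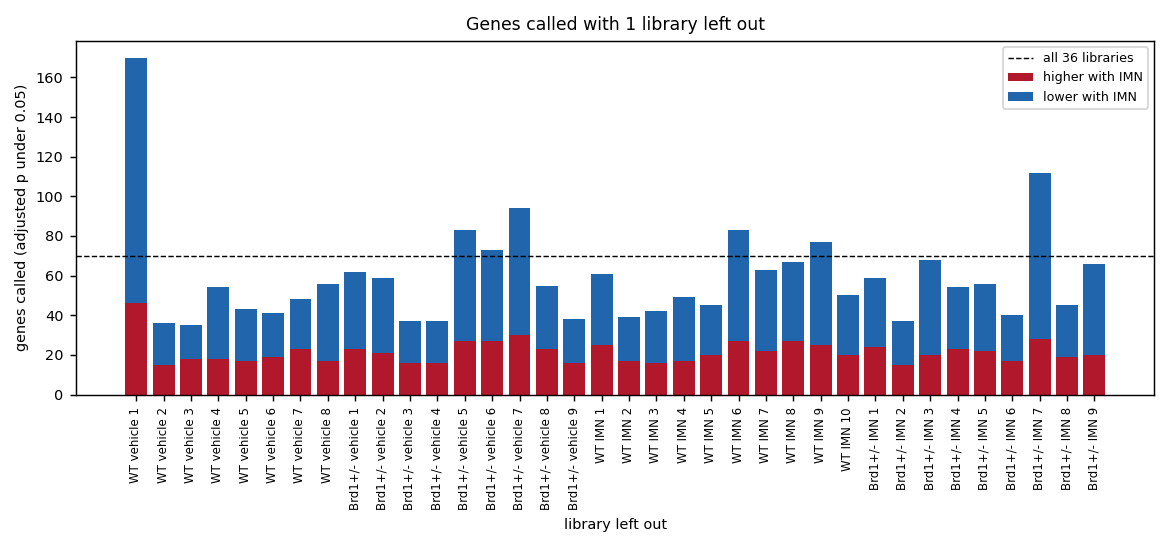
Number of genes called (vertical axis; red, higher with IMN; blue, lower) with each of the 36 libraries left out in turn (horizontal axis), beside the 70 genes called with all libraries (dashed line). The count was highest, at 170, without WT vehicle 1 and lowest, at 35, without WT vehicle 3.

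Activity-dependent transcription factors were lower with IMN where they passed. Of 25 members tested, 0 were called higher and 4 lower (Npas4, Egr1, Klf10 and Nab2), or 16% called against 0.274% of all genes tested. Of their log2 fold changes 21 of 25 were negative, and the median was -0.32 against -0.00 over all genes tested. This list and those below were drawn up with earlier results of these data known, so that their shares are no independent support. Npas4, a factor induced by calcium entry in neurons, ran from 12.4 to 63.5 TPM (median 33.4) in vehicle and from 11.4 to 29.4 TPM (median 18.3) in IMN libraries. Of the vehicle libraries 6 lay within the IMN range and 11 above it, all 19 IMN libraries lay below the vehicle median of their genotype, and Npas4 fell by 0.94 ± 0.16 (SE) on the log2 scale (limma adjusted p = 0.00318), or by 47.9%. Egr1, a zinc-finger immediate-early gene, ran from 178 to 437 TPM (median 309) in vehicle and from 95.5 to 340 TPM (median 187) with IMN. Its ranges overlapped widely, 18 of 19 IMN libraries were below the vehicle median, and it fell by 0.66 ± 0.13 (limma adjusted p = 0.00939). Klf10, a Kruppel-like factor that responds to TGF-beta, fell by 0.39 ± 0.09 (limma adjusted p = 0.0425), and Nab2, a corepressor that binds Egr proteins, fell by 0.32 ± 0.07 (limma adjusted p = 0.0471).

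Other transcription factors of the same list did not pass with all 36 libraries. Fos had a log2 fold change of -0.36 (limma adjusted p = 0.0696) and Egr3 one of -0.83 (limma adjusted p = 0.058), while Jun, at 0.28, had the highest value of the list. With 34 libraries 12 of the 25 factors were lower and 0 higher, and the median was -0.39. WT vehicle 1, a vehicle library, was set apart partly by its low activity genes, so that leaving it out lowers the fold changes of this list and the next by construction, and the larger counts are no independent support. Without Brd1+/- vehicle 6 alone the count stayed at 4. The factors called with 34 libraries beside the 4 above were Fos, Fosb, Fosl2, Egr2, Egr3, Egr4, Nr4a1 and Klf4. The count of this list was 12 without WT vehicle 1, and 2 when any 1 of the following was left out: WT vehicle 2 to 8, Brd1+/- vehicle 3, 4 or 9, WT IMN 1, 2, 3, 5 or 10, and Brd1+/- IMN 1, 2 or 6. Klf10 passed in 15 and Nab2 in 12 of the 36 fits that left out 1 library, whereas Npas4 and Egr1 passed in all 36.

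Effectors of activity were likewise lower with IMN where they passed. Of 28 members tested, 0 were called higher and 8 lower, or 28.6% called against 0.274% of all genes tested. Of their log2 fold changes 24 of 28 were negative, and the median was -0.28. This list too was drawn up with earlier results of these data known, and its member Pmepa1 was known from them. Nptx2, a secreted pentraxin that gathers AMPA receptors at synapses, ran from 62.4 to 125 TPM (median 98.7) in vehicle and from 30.6 to 85.4 TPM (median 61.8) with IMN. All 19 IMN libraries lay below the vehicle median of their genotype, and Nptx2 fell by 0.66 ± 0.11 (limma adjusted p = 0.00279). Arc, which drives the removal of AMPA receptors from the synaptic membrane, ran from 148 to 389 TPM (median 277) in vehicle and from 116 to 300.2 TPM (median 171) with IMN. It was lower than the vehicle median in 18 of 19 IMN libraries and fell by 0.67 ± 0.13 (limma adjusted p = 0.0108). Pmepa1, a membrane protein that dampens TGF-beta signalling, ran from 28.7 to 52.6 TPM (median 34.1) in vehicle and from 20.7 to 31.5 TPM (median 27.9) with IMN. Its ranges met only between 28.7 and 31.5 TPM, and it fell by 0.40 ± 0.06 (limma adjusted p = 0.00145).

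The 5 other called effectors fell by smaller or less stable amounts. Coq10b, a coenzyme Q-binding protein of mitochondria, had vehicle values of 26.8 to 38.6 TPM (median 30.5) and IMN values of 23.3 to 29.4 TPM (median 27.2), with all 19 IMN libraries below the vehicle median, and fell by 0.23 ± 0.04 (limma adjusted p = 0.0104). Gadd45b, a stress-induced protein linked to DNA demethylation, fell by 0.43 ± 0.09 (limma adjusted p = 0.0305) and passed in 30 of 36 fits that left out 1 library. Inhba, which encodes the subunit of activin A, fell by 0.62 ± 0.14 (limma adjusted p = 0.0425) but passed in 10 of those 36 fits. Rgs2, a regulator of G protein signalling whose start is shown above, fell by 0.32 ± 0.07 (limma adjusted p = 0.0326; 25 of 36 fits). Trib1, a pseudokinase, fell by 0.45 ± 0.10 (limma adjusted p = 0.0382; 19 of 36 fits). The called members include secreted proteins, a protein that acts on AMPA receptors, signalling inhibitors and a mitochondrial protein.

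Bdnf, the neurotrophin of this list, ran from 8.74 to 32.1 TPM (median 27.2) in vehicle and from 8.29 to 27.6 TPM (median 15.9) with IMN. Its log2 fold change was -0.53 ± 0.15 and did not pass (limma adjusted p = 0.136), although 18 of 19 IMN libraries lay below the vehicle median. The lowest vehicle value was that of WT vehicle 1, and with 34 libraries Bdnf was lower (limma adjusted p = 0.0124). In those libraries 12 effectors were lower and 0 higher, Pcsk1, Midn, Irs2 and Bdnf joining the 8. With 1 library left out, 13 effectors were called without WT vehicle 1. Only 5 were called without WT vehicle 2, Brd1+/- vehicle 3, WT IMN 2, WT IMN 3 or Brd1+/- IMN 6, and 4 without WT vehicle 3, 5 or 6 or Brd1+/- vehicle 4 or 9. With the myelin and striatal marker scores of each library as covariates, 4 effectors and 3 transcription factors were called, and with the replicate number as a block 4 and 3.

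**Figure D3:**
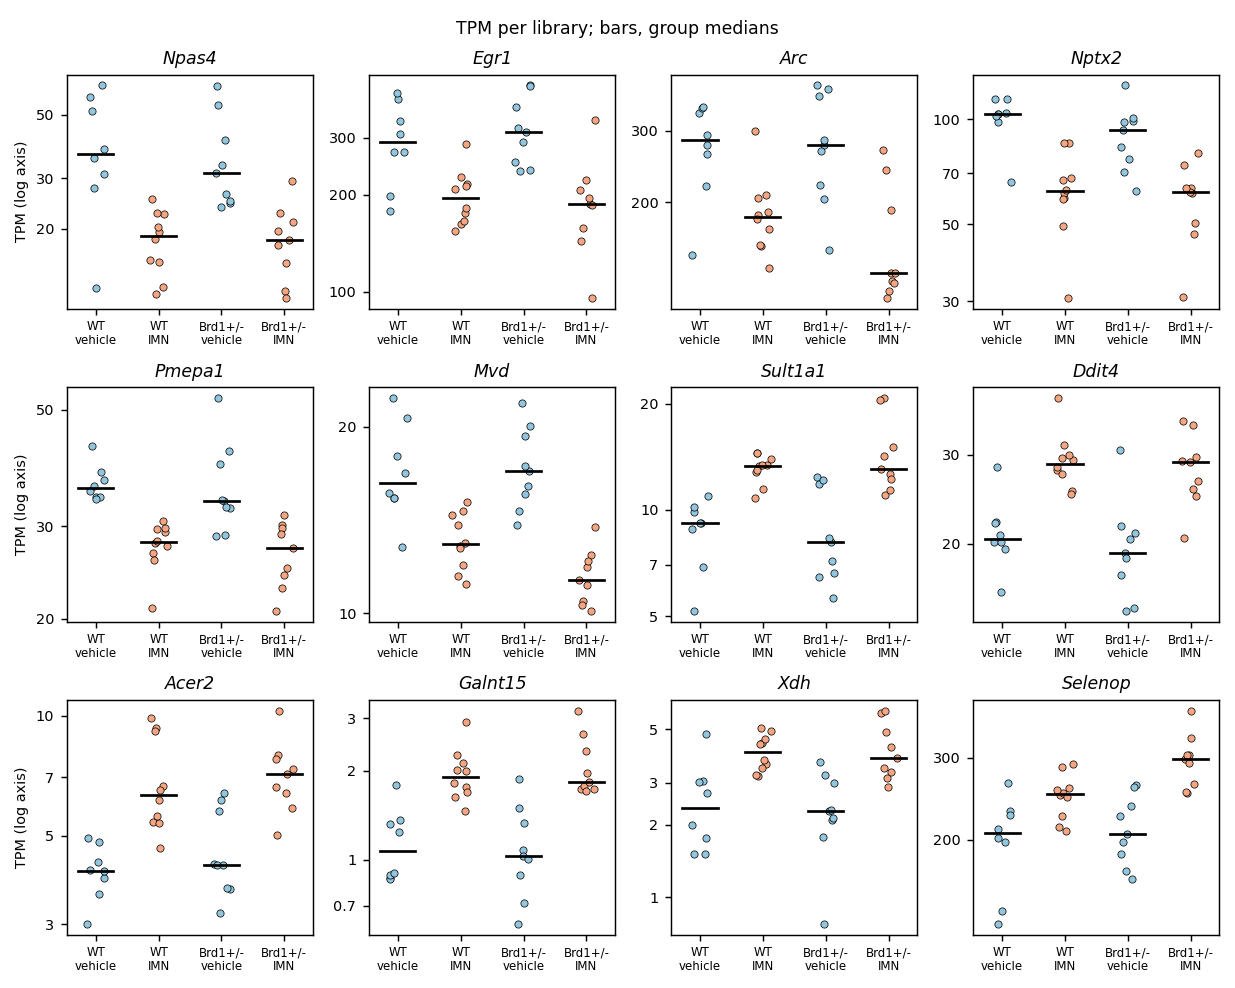
TPM of 12 called genes in every library (vertical axes, logarithmic) in the 4 groups, vehicle in blue and IMN in orange, with the group median as a bar. Npas4, Egr1, Arc, Nptx2, Pmepa1 and Mvd have lower and Sult1a1, Ddit4, Acer2, Galnt15, Xdh and Selenop higher medians with IMN in both genotypes, and the single low WT vehicle point of Npas4 and of Nptx2 is WT vehicle 1.

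MAP kinase phosphatases and Sprouty proteins, which switch off the kinase cascade that activity turns on, were lower with IMN where they passed. Of 15 members, 0 were higher and 2 lower, or 13.3% called against 0.274% of all genes tested. The median log2 fold change was -0.08. Dusp14, a dual-specificity phosphatase, ran from 72.2 to 185 TPM (median 113) in vehicle and from 57.7 to 128 TPM (median 85.4) with IMN, and fell by 0.48 ± 0.10 (limma adjusted p = 0.0308). Dusp7, a phosphatase of the ERK kinases, fell by 0.23 ± 0.05 (limma adjusted p = 0.0425). Both are near the threshold: Dusp14 passed in 31 and Dusp7 in 14 of 36 fits that left out 1 library, and neither passed without WT vehicle 2, WT vehicle 6, Brd1+/- vehicle 3, Brd1+/- vehicle 4 or Brd1+/- IMN 6 (0 of 2 each).

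Genes that glucocorticoids are known to raise were higher with IMN where they passed, in a list drawn up with earlier results of these data known. Of 20 receptors and responsive genes, 2 were called higher and 0 lower, or 10% called against 0.274% of all genes tested. Of their log2 fold changes 17 of 20 were positive, and the median was 0.19. Ddit4, an inhibitor of the growth kinase mTORC1, ran from 14.7 to 30.6 TPM (median 20.1) in vehicle and from 20.6 to 38.8 TPM (median 29) with IMN. All 19 IMN libraries were above the vehicle median of their genotype despite overlapping ranges, and Ddit4 rose by 0.49 ± 0.08 (limma adjusted p = 0.00121), or by 40.7%. Sult1a1, a sulfotransferase of phenols and catecholamines, ran from 5.18 to 12.4 TPM (median 8.83) in vehicle and from 10.8 to 20.7 TPM (median 13.3) with IMN. It was likewise above the vehicle median in all 19 IMN libraries and rose by 0.65 ± 0.10 (limma adjusted p = 0.00121), or by 56.7%.

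The other 18 members of that list did not pass. Fkbp5, a co-chaperone of the receptor, had a log2 fold change of 0.17 (limma adjusted p = 0.612), Sgk1, a kinase, one of 0.43 (limma adjusted p = 0.496), and the receptor Nr3c1 itself one of -0.03 (limma adjusted p = 0.934). Plin4, a lipid droplet protein, had the highest value of the list, 0.68 (limma adjusted p = 0.154). With 34 libraries 3 members were higher, Plin4 joining the pair, and 1 lower, the cell cycle inhibitor Cdkn1a. The count was 4 without WT vehicle 1 alone. Both Ddit4 and Sult1a1 passed in all 36 fits that left out 1 library.

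Mvd, which makes isopentenyl diphosphate in the mevalonate pathway, had the smallest p of all genes. It ran from 12.8 to 22.2 TPM (median 16.8) in vehicle and from 10.1 to 15.1 TPM (median 12.1) with IMN. All 19 IMN libraries were below the vehicle median of their genotype, with overlap between 12.8 and 15.1 TPM, and Mvd fell by 0.46 ± 0.07 (limma adjusted p = 0.000743), or by 27.2%. It was the only called enzyme among 20 of sterol synthesis (0 higher, 1 lower), of which 18 had negative log2 fold changes with a median of -0.13. Msmo1 had -0.24 (limma adjusted p = 0.0901) and Hmgcs1 -0.26 (limma adjusted p = 0.119). With 34 libraries Idi1, the next enzyme after Mvd, was also lower (limma adjusted p = 0.0215). The count of the list was 2 without Brd1+/- vehicle 6 and 3 without WT IMN 7.

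Genes of sterol and fatty acid regulation and transport showed 0 calls among 27 with limma, 1 higher and 4 lower at an unadjusted p under 0.05, and a median log2 fold change of -0.01. Cyp46a1, the enzyme that turns brain cholesterol into 24-hydroxycholesterol, had the smallest p of them, at -0.24 ± 0.06 (limma adjusted p = 0.0611), and was lower with 34 libraries (limma adjusted p = 0.00891). Srebf1, a lipogenic transcription factor, stood at 0.32 ± 0.10 (limma adjusted p = 0.192) and Fasn, fatty acid synthase, at -0.15 ± 0.06 (limma adjusted p = 0.351).

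The targets of the drug were not called. Of 43 monoamine transporters, enzymes and receptors, 38 were tested and 0 passed in limma, with 0 higher and 4 lower at an unadjusted p under 0.05 and a median log2 fold change of -0.07. The transporters Slc6a4 and Slc6a2 were under the filter and not tested; as background, the neurons that make them lie in the brainstem. Adrb1, the beta-1 adrenergic receptor, ran from 16.5 to 27.9 TPM (median 24.1) in vehicle and from 12.7 to 23.7 TPM (median 19.7) with IMN. Its log2 fold change of -0.29 ± 0.07 did not pass (limma adjusted p = 0.0621) although 18 of 19 IMN libraries were below the vehicle median. Chrm4, a muscarinic receptor, had -0.32 ± 0.08 (limma adjusted p = 0.0795), and Hrh2, a histamine receptor, -0.17 ± 0.07 (limma adjusted p = 0.44). With 34 libraries Adrb1 (limma adjusted p = 0.00534) and Chrm4 (limma adjusted p = 0.0413) were lower.

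Among genes in none of the lists, 51 were called, and the higher ones are given first. Galnt15, which starts O-linked glycosylation, ran from 0.609 to 1.87 TPM (median 1.03) in vehicle and from 1.46 to 3.18 TPM (median 1.83) with IMN, above the vehicle median in all 19, and rose by 0.64 ± 0.09 (limma adjusted p = 0.000852). Acer2, a Golgi ceramidase, ran from 3.00 to 6.40 TPM (median 4.22) in vehicle and from 4.65 to 10.3 TPM (median 6.61) with IMN, and rose by 0.62 ± 0.10 (limma adjusted p = 0.00121). Xdh, which oxidises purines to uric acid, ran from 0.777 to 4.77 TPM (median 2.30) and from 2.88 to 5.95 TPM (median 3.80), and rose by 0.68 ± 0.13 (limma adjusted p = 0.00888). These levels overlapped between treatments, but no IMN library lay below the vehicle median of its genotype for any of the 3 genes (0 of 19).

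Selenop and Selenoo, both selenoproteins, rose. Selenop, the secreted carrier of selenium, ran from 132 to 265 TPM (median 206) in vehicle and from 208 to 378 TPM (median 258) with IMN, and rose by 0.41 ± 0.08 (limma adjusted p = 0.00921). Selenoo, a mitochondrial selenoprotein of kinase fold, rose by 0.24 ± 0.05 (limma adjusted p = 0.0099). Etnppl, a phospholyase of phosphoethanolamine found in astrocytes, ran from 6.86 to 18.3 TPM (median 10.8) and from 13.1 to 24.1 TPM (median 15.5), and rose by 0.49 ± 0.10 (limma adjusted p = 0.0156). In all 19 IMN libraries each of the 3 lay above the vehicle median of its genotype.

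Slco4a1, an organic anion transporter, rose by 0.82 ± 0.15 (limma adjusted p = 0.0046), from a vehicle median of 1.55 TPM to an IMN median of 3.23 TPM. Lmbr1, a membrane receptor-like protein, rose by 0.71 ± 0.13 (limma adjusted p = 0.00436), with vehicle values of 3.21 to 14.1 TPM and IMN values of 6.78 to 12.8 TPM, and Kirrel2, an adhesion molecule of the immunoglobulin family, by 0.46 ± 0.08 (limma adjusted p = 0.00185). For Lmbr1, 6 vehicle libraries lay below every IMN library, 10 within the IMN range and 1 above it. Gpr65, a proton-sensing receptor, was close to the floor, with medians of 0.101 and 0.275 TPM, and was listed at 0 in 8 vehicle and 1 IMN libraries (rise of 0.47 ± 0.09, limma adjusted p = 0.0103). The microRNA gene Mir7213 had the highest fold change of the called genes, 1.32 ± 0.27 (limma adjusted p = 0.0193), but was listed at 0 in 11 vehicle and 2 IMN libraries and lies within Pdgfb on the same strand, so that its reads are uncertain and its fold change depends on the constant added before the logarithm.

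The lower genes outside the lists follow. Mycn, a Myc family factor, ran from 4.78 to 8.33 TPM (median 6.23) in vehicle and from 2.80 to 6.36 TPM (median 4.32) with IMN, below the vehicle median in all 19, and fell by 0.46 ± 0.08 (limma adjusted p = 0.00279). Arid3b, a DNA-binding protein, fell by 0.46 ± 0.08 (limma adjusted p = 0.00185) and Ccnf, cyclin F, by 0.52 ± 0.10 (limma adjusted p = 0.01). Rrp9, a component of the U3 nucleolar particle that processes ribosomal RNA, ran from 21.5 to 31.4 TPM (median 26.2) and from 16.9 to 25.4 TPM (median 21.1), and fell by 0.28 ± 0.05 (limma adjusted p = 0.00436). Phf21b, a chromatin reader, had a median of 24.7 TPM in vehicle and 15.1 TPM with IMN and fell by 0.72 ± 0.14 (limma adjusted p = 0.0161). Tnfrsf25, a death receptor, fell by 0.73 ± 0.17 (limma adjusted p = 0.0425), and Fam129b, a Niban family protein, by 0.27 ± 0.06 (limma adjusted p = 0.039). The last pair passed in 15 and 16 of 36 fits that left out 1 library, and the other 5 in all 36. The locus Gm8170 did not pass (0.45 ± 0.11, limma adjusted p = 0.0523).

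Dnajb5, a chaperone of the Hsp40 family, was the only called member among 24 heat-shock and cold-inducible genes (0 higher, 1 lower; median log2 fold change -0.05). It ran from 231 to 352 TPM (median 282) in vehicle and from 167 to 319 TPM (median 227) with IMN, and fell by 0.33 ± 0.06 (limma adjusted p = 0.00888), with 17 of 19 IMN libraries below the vehicle median. Dnajb1 joined it with 34 libraries, and the count was 2 without WT vehicle 1 or without Brd1+/- IMN 7. Of 30 genes of TGF-beta signalling Pmepa1 alone was called, the median was -0.10, and 2 were called without WT vehicle 1, Brd1+/- vehicle 7 or Brd1+/- IMN 7. Sox18, a transcription factor of endothelial cells, was the only called gene among 20 endothelial markers (median log2 fold change -0.02). It ran from 7.80 to 15.3 TPM (median 10.6) in vehicle and from 5.30 to 11.0 TPM (median 7.74) with IMN, and fell by 0.44 ± 0.09 (limma adjusted p = 0.0103). The summed level of the 20 endothelial markers was 287 to 444 TPM in vehicle and 289 to 440 TPM in IMN libraries.

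**Figure D4:**
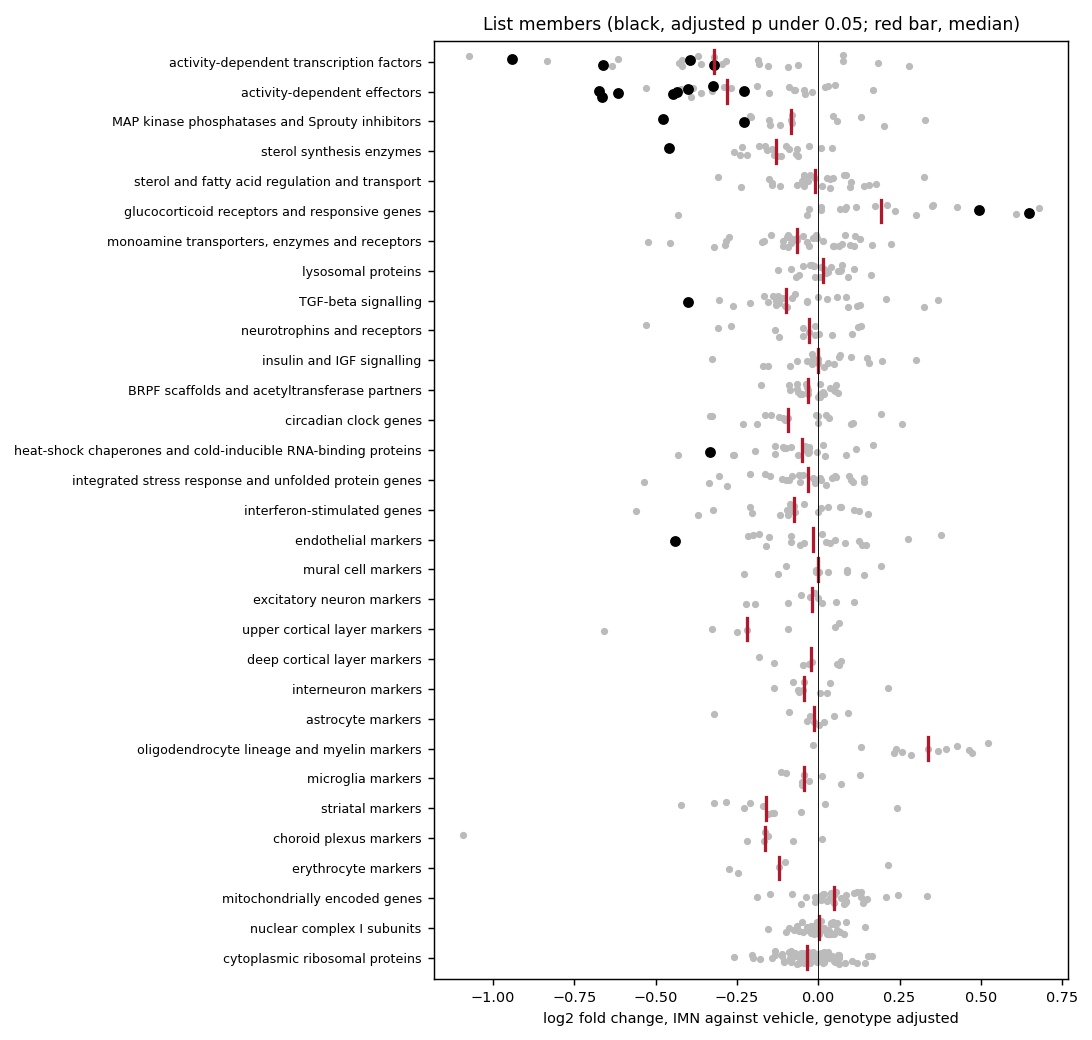
Log2 fold change with IMN, adjusted for genotype (horizontal axis), of every tested member of the 31 lists (vertical axis), with called members in black and the median of each list as a red bar. Both activity lists lie left of 0, with medians of -0.32 and -0.28, and the glucocorticoid list lies right of it, with a median of 0.19. The myelin list also lies right of 0, at 0.34, without a called member.

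The remaining pathway lists had 0 calls in limma. Neurotrophins and receptors (15 tested of 17) had 0 higher and 2 lower at an unadjusted p under 0.05, with Vgf at -0.27 ± 0.11 and Ntf3 at -0.31 ± 0.23 after Bdnf. Insulin and IGF signalling (22) had 2 higher and 1 lower, with the adaptor Irs2 at -0.33 ± 0.10, Grb14 at 0.20 ± 0.07 and Pik3r1 at 0.15 ± 0.07. Clock genes (19) had 1 higher and 5 lower, with Rorb at -0.33 ± 0.09, Per2 at -0.33 ± 0.11 and Hlf at 0.26 ± 0.09. With 34 libraries Irs2 (limma adjusted p = 0.0354) and Per2 (limma adjusted p = 0.0382) were lower. WT vehicle 1, left out there, was low in both (17.7 and 16.1 TPM). Leaving it out therefore lowers these fold changes by construction.

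Unfolded protein and integrated stress genes (28) had 0 higher and 6 lower at that level, among them the endoplasmic reticulum proteins Sdf2l1 at -0.54 ± 0.14, Creld2 at -0.33 ± 0.09 and Pdia4 at -0.30 ± 0.09. Interferon-stimulated genes (21) had 0 higher and 3 lower, with Usp18 at -0.56 ± 0.17, Irf9 at -0.32 ± 0.10 and Isg15 at -0.37 ± 0.14. Lysosomal genes (24) had 2 higher and 1 lower, with the protease Ctsl at 0.16 ± 0.05, Pla2g15 at -0.12 ± 0.05 and Glb1 at 0.11 ± 0.04. Over all genes 998 were higher and 1401 lower at that level, 9.38% of those tested.

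Brd1, the targeted gene, followed the genotype labels and was not called with IMN. Its level was 22.6 to 31.9 TPM (median 26.1) in WT vehicle and 13.8 to 20.9 TPM (median 16) in Brd1+/- vehicle libraries, and 17.9 to 27.8 TPM (median 24) in WT IMN and 13.5 to 19.4 TPM (median 17.3) in Brd1+/- IMN libraries. Every group median was lower in Brd1+/- than in WT mice, and within a treatment the genotypes overlapped in the IMN libraries only, between 17.9 and 19.4 TPM. By treatment it ran from 13.8 to 31.9 TPM (median 20.9) in vehicle and from 13.5 to 27.8 TPM (median 19) in IMN libraries of both genotypes, with a log2 fold change of -0.09 ± 0.07 (limma adjusted p = 0.752). Its scaffold and acetyltransferase partners (23 genes with Brd1) had 0 calls and 0 higher and 1 lower at an unadjusted p under 0.05, with Hdac6 at -0.18 ± 0.08 and Meaf6 at -0.09 ± 0.07.

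No cell type marker other than Sox18 was called, and in bulk tissue fewer cells of a type and less RNA per cell cannot be told apart. The other 11 marker lists held 103 tested entries with 0 calls in limma, and 1 higher and 3 lower at an unadjusted p under 0.05, a level that 9.38% of all genes reached. Of the oligodendrocyte and myelin markers 12 of 13 log2 fold changes were positive, with a median of 0.34, or 0.59 with 34 libraries. Their summed level ran from 255 to 2811 TPM (median 595) in vehicle and from 298 to 3491 TPM (median 823) in IMN libraries, a spread within each treatment far wider than the shift between them, and Olig1 stood at 0.24 ± 0.11, Olig2 at 0.23 ± 0.12 and Opalin at 0.46 ± 0.37. With the myelin and striatal scores as covariates 45 genes were called (17 higher, 28 lower), 35 of them among the 70.

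Upper-layer markers (7) had a median of -0.22, or -0.31 with 34 libraries. Among them Rorb, also a clock gene, stood at -0.33 ± 0.09 (limma adjusted p = 0.136, the smallest of the list), Otof at -0.66 ± 0.45 and Cux1 at -0.09 ± 0.09. Deep-layer markers (8) had a median of -0.02, or 0.16 with 34 libraries, with Ntng2 at -0.18 ± 0.10, Etv1 at 0.06 ± 0.18 and Foxp2 at -0.14 ± 0.42. WT vehicle 1, left out of the 34, was the vehicle library lowest in upper-layer and highest in deep-layer markers. Excitatory neuron markers (10; Nrgn -0.19 ± 0.11, Camk2a -0.09 ± 0.09) had a median of -0.02 and a summed level of 3781 to 6250 TPM in vehicle and 2942 to 6310 TPM in IMN libraries. In vehicle libraries the median summed level was 5409 TPM for the excitatory neuron and 543 TPM for the upper-layer markers, beside 259.8 TPM for 12 striatal and 2.72 TPM for 7 choroid plexus markers. Interneuron (Dlx1 -0.14 ± 0.09, Npy -0.08 ± 0.12, Pvalb 0.21 ± 0.33), astrocyte (Sox9 -0.32 ± 0.11, Aldoc 0.09 ± 0.06, Slc1a2 0.05 ± 0.05), microglia (Aif1 -0.10 ± 0.11, Cx3cr1 -0.12 ± 0.13) and mural cell markers (Cspg4 -0.23 ± 0.12, Pdgfrb 0.09 ± 0.09, Abcc9 0.09 ± 0.09) had medians between -0.04 and -0.00.

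Striatal markers had a median of -0.16 with 36 and 0.02 with 34 libraries, and choroid plexus markers -0.16 and 0.04, and both lists were high in Brd1+/- vehicle 6. The striatal Pdyn stood at -0.32 ± 0.16 and Rasd2 at -0.15 ± 0.11. Of the choroid plexus genes Ttr, listed at 0 in 6 vehicle and 12 IMN libraries, stood at -1.09 ± 0.76, Clic6 at -0.22 ± 0.28 and Kcne2 at -0.17 ± 0.25, and the last pair were positive with 34 libraries, at 0.07 and 0.04. Erythrocyte genes had a median of -0.12 (Hba-a2 -0.27 ± 0.18, Hba-a1 -0.25 ± 0.18, Alas2 0.22 ± 0.21). The part of these cell types in the called genes was not tested beyond the covariate fit. Mitochondrially encoded genes (37) had 5 higher and 1 lower at an unadjusted p under 0.05 and a median of 0.05, led by mt-Te at 0.13 ± 0.05, mt-Tl1 at 0.15 ± 0.06 and mt-Tl2 at 0.24 ± 0.09. Complex I subunits (45; Ndufa5 -0.15 ± 0.10, Ndufa4 0.14 ± 0.11, Ndufv3 -0.07 ± 0.06) and ribosomal proteins (80; Rpl11 -0.13 ± 0.06, Rps26 -0.11 ± 0.05, Rps28 -0.14 ± 0.08) had medians of 0.00 and -0.03.

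Both genotypes carried the changes. Each of the 70 genes had the same sign in WT and in Brd1+/- mice fitted separately, a direction that the choice of genes on both genotypes together partly fixes. Mvd fell by 0.36 in WT and by 0.56 in Brd1+/- mice, Npas4 by 0.98 and by 0.90, and Ddit4 rose by 0.47 and by 0.52. A genotype by treatment term passed for 0 of 25572 genes after adjustment in limma, against 818 at an unadjusted p under 0.05. These are fewer than that level would give if no gene differed. The 0 therefore does not show that the effect was equal in both genotypes. Of the 70 genes 3 were among the latter, named after their values were seen: Ppp1r37 (-0.40 in WT, -0.15 in Brd1+/-), Usp28 (-0.39 and -0.13) and Gm37074 (-0.51 and -0.21).

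**Figure D5:**
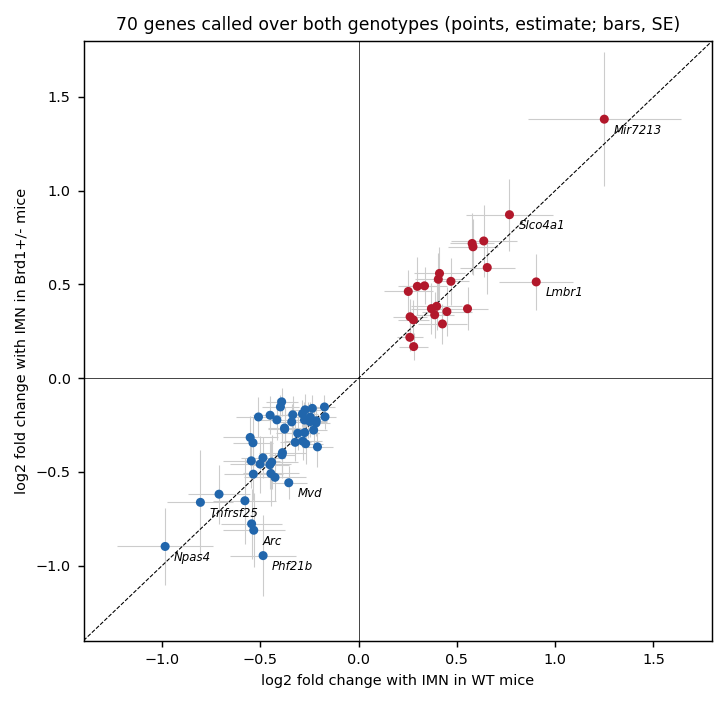
Log2 fold change with IMN in WT mice (horizontal axis) and in Brd1+/- mice (vertical axis) for the 70 genes called over both genotypes, with standard errors as bars and the line of equal change dashed. All 70 points lie in the lower left or upper right of the plot, and Phf21b (-0.49 and -0.95) and Lmbr1 (0.90 and 0.51) are among those away from the line.

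The fits within genotype share no library, so that genes chosen in one could be read in the other without that choice. At an unadjusted p under 0.01, 404 genes (1.58%) were chosen in WT mice, and 336 of them (83.2%) had the same direction in Brd1+/- mice, against 57.7% of all genes. Of the 294 lower ones 247 were lower and of the 110 higher ones 89 were higher in Brd1+/- mice. At an unadjusted p under 0.05 there, 102 had the same and 2 the opposite direction. In the other order, 313 genes (1.22%) were chosen in Brd1+/- mice, 247 (78.9%) had the same direction in WT mice, and 72 against 4 reached an unadjusted p under 0.05. Over all genes tested, which are not independent replicates, Pearson's r of the log2 fold changes was 0.17.

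The windows of 250 bases before the RefSeq start were searched for motifs in the called genes, 54 of 70 of which had a window. Egr1, Arc, Nptx2, Pmepa1, Klf10 and Trib1 had none, so the counts below do not cover these called activity genes. The core TGACG, on either strand, was in 11 of 40 windows of lower genes (27.5%), in 7 of 25 windows of higher genes (28%) and in 17.8% of all 32851 windows. Npas4 and Rgs2 each held a pair, as printed above. More than 1 core also lay in the windows of Coq10b, called lower, and of Lmbr1 and Pnpla8, called higher. Windows of the same gene can overlap, as for Dnajb5 and Selenop, so that 1 core can be counted in more than 1 window. The full cyclic AMP element TGACGTCA, which holds that core on both strands, was in 0 windows of called genes and in 1.55% of all. The serum response CArG box was in 1 window, that of Arid3b, and in 1.47% of all. The consensus glucocorticoid element (0.387% of all windows) and the sterol regulatory element TCACNCCAC (1.05%), searched on both strands, were in 0 windows of called genes, those of Ddit4, Sult1a1 and Mvd among them. At shares this low few or no hits would fall in so few windows. These counts therefore do not show which factors act on the genes.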

How the data were processed

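Reads were single-end, from the BGISEQ-500. Per the submitters' processing notes, the authors used FastQC, Trimmomatic, HISAT2 2.1.0 and StringTie 1.3.4 with GRCm38. The deposited values are TPM computed by the authors for each library alone, with no further normalization. Strand use and reads matching several genes are not given in the sources used here, so overlapping genes are uncertain. TPM keep no depth, and no counting error was computed.

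The table held 52636 genes, and 0 columns of values were left unmatched. TPM were transformed as log2(TPM + 0.5), the scale of every fold change, which understates low genes. A gene was tested where 8 or more of the 36 libraries reached 0.1 TPM, with limma 3.58.1 in R 4.3.3 (treatment and genotype, empirical Bayes with intensity trend, two-sided) and Benjamini-Hochberg adjustment over all genes tested. The fit was first tested on simulated data with known changes. Permutation tests used 100000 draws within genotype. Python 3.11.15 with numpy 2.4.6, scipy 1.17.1, pandas 2.3.3 and matplotlib 3.10.9 made the summaries.

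The genes, lists and rules were chosen with earlier results of these data known. Genes named were the 25 of smallest adjusted p, the 10 of largest fold change among those called, the called members (up to 8) or else the 3 of smallest p of each list, and 6 genes fixed by name, and some that the rule names are not reported here. Lists were described by counts, with no set test. The fit was repeated with pseudocounts of 0.1 and 1, unfiltered, with genes averaging 1 TPM or more, after quantile normalization or scaling by median ratios, on TPM without mitochondrially encoded genes, with array weights, a replicate block or marker scores as covariates, without the genotype term, and with libraries left out. Gene positions are from GENCODE and promoters from RefSeq, both on GRCm38.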

Additional observations from a re-analysis of the deposited data

Results flagged for a closer look

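A library was singled out where it lay further from the rest of its group than Dixon's critical value at 95% allows, on the log2 scale. Of 416 combinations of a named gene (or the mitochondrial share) and a group, 45 did, where chance gives about 1 in 20, or 20.8. The most came from WT vehicle 1 (10), WT IMN 7 (7) and Brd1+/- vehicle 6 (6).

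WT vehicle 1 was low in Nptx2 (66.0 TPM), Nab2 (38.4), Gadd45b (15.3), Bdnf (8.74), Irs2 (17.7), Per2 (16.1), Camk2a (818), Otof (0.248) and Sox9 (5.82) and high in Foxp2 (18.5). Brd1+/- vehicle 6 was high in Dlx1 (38.4 TPM), Rasd2 (109), Ttr (3806), Clic6 (20.1) and Kcne2 (13.2) and low in Aif1 (5.25). WT IMN 7 was high in Ddit4 (38.8 TPM), Olig1 (111) and Olig2 (30.05) and low in Adrb1 (12.7), Chrm4 (20.0), Hrh2 (7.28) and mt-Te (2442).

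Brd1+/- IMN 6 was low in Nab2 (26.1 TPM), Otof (0.0525) and Pdyn (5.26). WT IMN 3 was low in Pmepa1 (21.0 TPM) and Ntng2 (10.6) and high in Etnppl (23.5). Brd1+/- vehicle 7 was low in Inhba (2.50 TPM) and Meaf6 (51.8) and high in Ndufa4 (509). WT IMN 6 was high in Gpr65 (0.640 TPM) and Arc (300.2), and Brd1+/- vehicle 5 was low in Ccnf (3.19 TPM) and high in Rorb (9.69).

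The remaining values were 1 per library. Dusp7 was high in Brd1+/- vehicle 9 (75.5 TPM), Fasn in WT vehicle 7 (84.6), Chrm4 in Brd1+/- IMN 7 (50.5), and Ttr in WT IMN 9 (5.68) and in Brd1+/- IMN 1 (38.5). Pik3r1 was low in Brd1+/- IMN 9 (53.2 TPM), Pdgfrb in Brd1+/- IMN 4 (3.99), Cux1 in WT vehicle 4 (20.6) and Cx3cr1 in Brd1+/- vehicle 2 (4.07).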

How the results depend on the processing

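The 70 called genes (23 higher, 47 lower) became 191 (60 higher, 131 lower) with array weights, 45 (17 higher, 28 lower) with marker scores as covariates, 164 (47 higher, 117 lower) without the 2 libraries that stood apart, and 63 (32 higher, 31 lower) on TPM without mitochondrially encoded genes. Apart from the replicate block, given in the next paragraph, the other alternatives gave between 55 and 89 genes. With 1 library left out, between 35 and 170 genes were called, 15 to 46 higher and 17 to 124 lower, and between 679 and 1028 genes had an unadjusted p under 0.01.

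The replicate number as a block gave 37 genes (14 higher, 23 lower), 33 of them among the 70. Over 51 same-numbered pairs of different groups the correlation of deviations ran from -0.31 to 0.32 (median -0.02), and 7 exceeded 0.1. Over 434 differently numbered pairs it ran from -0.38 to 0.39 (median -0.005), and 82 exceeded 0.1. Such correlations cannot show whether the numbers pair mice, for example by litter.

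The share of genes chosen in WT mice with the same direction in Brd1+/- mice was 87.6% at a mean of at least 1 TPM. The share in the other order was 86.0% at that filter and 73.0% without the 2 libraries. For these counts the cause was not tested. Of the named genes, no called one changed sign under the alternatives run. Uncalled Camk2a, Etv1, Foxp2, Pvalb, Clic6 and Kcne2 did under at least 1. Depth is unknown, and the spread between libraries, 1 per mouse, set the precision.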
